A study of Rattus norvegicus with 15 samples.

Results

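The genes described here had higher signals in syngeneic kidney grafts than in native rat kidneys, and lower signals in allogeneic grafts than in syngeneic ones. They were chosen from the signals themselves. A probe set is the group of oligonucleotides on an array that reads 1 transcript. A probe set was taken when it carried 1 gene symbol, its geometric mean in the syngeneic group (sTX) was at least 100, its ratio of sTX to the control group (ctr) was at least 1.5, its ratio of the acute group (aTX) to sTX was at most 0.67, and all 5 sTX values lay above all 5 ctr values. Affymetrix control probe sets, Havcr1 and symbols that begin with Slc, Abc, Cyp, Hsp, Dnaj, Col, Gst, Rpl or Rps were left out. This gave 82 member probe sets of 73 genes, out of 31042 probe sets tested and 20826 with 1 symbol. Because these values chose the members, the ratios of sTX to ctr and of aTX to sTX are given as descriptions and carry no test.

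The ctr group held 5 native kidneys from the strain Lewis Brown Norway (LBN), the sTX group 5 LBN kidneys in LBN recipients, and the aTX group 5 LBN kidneys in Lewis recipients. All animals were 10 to 12 weeks old, grafts were taken on day 4 without immunosuppression, and per the series description the control kidneys were the second kidneys of donors. Strains follow the study's methods, while the source names of the samples give others, and a treatment field calls sTX 4 and sTX 5 allogeneic against their titles and source names. Each kidney was read on its own Affymetrix Rat Genome 230 2.0 array as a MAS5 signal, a linear intensity scaled to a trimmed mean of 100 on every array.

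Of the 73 genes 5 encode proteins of elastic fibres and microfibrils, 11 other matrix components, 5 proteases or an inhibitor of them, 9 secreted signals and other secreted proteins, 14 receptors and membrane proteins, and 6 parts of the contractile apparatus or of cyclic GMP signalling. In the kidney, the interstitium between the tubules holds fibroblasts, pericytes and vessels, and these cells make fibrillin microfibrils, elastic fibres, proteoglycans and collagens. After injury, fibroblasts and pericytes are known to take on contractile proteins and to lay down more matrix, and secreted antagonists of the BMP and Wnt pathways, such as gremlin and Dickkopf proteins, tune the signals they receive. In a whole kidney on an array, fewer cells of a type and less RNA per cell cannot be told apart.

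Several facts about the arrays touch every value below. By the hybridization date and time in their instrument records the arrays fell into 2 runs. These are called wash runs here, a label that stands only for arrays close in time. The first held all ctr arrays and aTX 2, 3 and 4, the second all sTX arrays and aTX 1 and 5. The sTX group and the ctr group therefore differ in run as well as in treatment, and these cannot be told apart in that comparison. The 3' to 5' signal ratio of Gapdh, a sign of RNA integrity, was 1.13 to 1.25 in ctr, 1.07 to 1.13 in sTX and 1.01 to 1.07 in aTX. That of beta-actin differed more, at 1.54 to 1.98 in ctr, 1.45 to 1.61 in sTX and 1.14 to 1.29 in aTX. The sum of 20 leukocyte marker genes was 2385.4 to 2986.1 in ctr, 3693.3 to 5447.6 in sTX and 14047.8 to 16863.5 in aTX, and sums of markers of the proximal tubule, thick ascending limb, collecting duct, podocyte and endothelium were lowest in aTX. The median log2 difference of all 31042 probe sets was 0.09 for sTX minus ctr and -0.18 for aTX minus sTX. The part of these shifts in the member values was not tested.

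Among the acute arrays, aTX 1 stood apart in the members. It was the highest acute array in 57 of 82 members (69.5%), against 24.8% of all 8436 probe sets with an sTX mean of at least 100. Its median ratio to the ctr mean over the members was 1.27, and that of the other 4 acute arrays was 0.933 to 1.03, including aTX 5 from the same wash run at 1.0. Its fibroblast and smooth muscle marker sum was 5672.1 against 3953.4 to 4648.2 on the other acute arrays, and its leukocyte sum, at 14047.8, was the lowest of the acute group. In the syngeneic group, sTX 5 was the lowest array in 38 of 82 members (46.3%, against 25.3% of the same 8436 probe sets), with a median ratio to ctr of 1.83 against 2.03 to 2.11 for sTX 1 to 4. The counts of calls in aTX and the values of members given array by array are therefore also given without aTX 1.

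**Figure D1:**
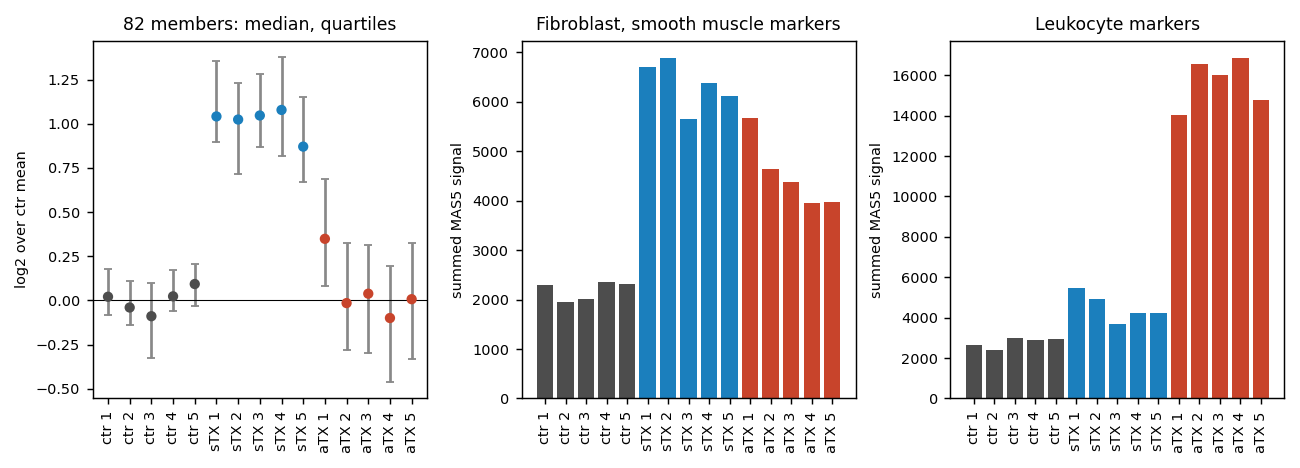
Left, the log2 signal of the 82 members over their ctr mean on each of the 15 arrays (points are medians, bars the quartiles). Middle and right, the summed MAS5 signal of 8 fibroblast and smooth muscle markers and of 20 leukocyte markers on the same arrays. Grey is ctr, blue sTX and red aTX. The members sat near 0 on the ctr arrays, between 0.87 and 1.08 on the sTX arrays and between -0.1 and 0.35 on the aTX arrays, with aTX 1 the highest of these.

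Over the 82 members the ratio of sTX to ctr was a median of 1.0 on the log2 scale (0.59 to 3.16), and aTX minus sTX a median of -0.99 (-2.6 to -0.59). At least a doubling in sTX was reached by 41 members, and 40 were at or below 0.5 in aTX over sTX. All 5 aTX arrays lay below all 5 sTX arrays in 72 members, which follows in large part from their choice (17.0% of all probe sets did so). In the other 10 (Adamts5, Cntf, Fbn1, Gucy1b1, Mmp2, Pltp, Pxdn, Rcn3, Serpine2 and Sod3) the arrays overlapped, and without aTX 1 the overlap was left to Adamts5, Cntf and Gucy1b1 (18.8% of all probe sets did not overlap in this direction).

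Members just inside and just outside each threshold had nearly the same values. Selenom and Tmem88 entered at 1.51 in sTX over ctr, while Cav1 at just under 1.5 and Dpep1 at 1.47 did not. Rcn3 and Pltp entered at 0.665 in aTX over sTX, and Sfrp1 at 0.675 and Loxl2 at 0.677 stayed out. Adamts5 and Dhx36 entered with sTX means of 100 and 101 and Htra3 at 98.5 did not. Of 422 probe sets with an allowed symbol that met the level and the rise, 82 (19.4%) were members, and 340 failed only on the ratio of aTX to sTX. A further 18 probe sets met every threshold but were left out by symbol. These were 16 probe sets of 13 collagen genes, Abca8a and Havcr1.

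The same ratios can be described with the wash run in view, though the same signals chose the members, so these values are no independent support and leave run and treatment confounded in sTX against ctr. With the run as a block, 81 of 82 members had a ratio of sTX to ctr above 1 (55.6% of all probe sets), the exception being Serpine2, and 61 had at least 1.5 (20.8%), with a median log2 difference of 0.83. The size of the block rests on the split of the 5 acute arrays between runs, and aTX 1 is in the smaller part. Within the second run, aTX 1 and 5 lay below sTX on average in all 82 members (59.0% of all probe sets) and at or below 0.67 in 62 (26.9%), with a median log2 difference of -0.84.

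The comparison that the thresholds did not use is aTX against ctr, although it shares its arrays with both comparisons that did. With limma over all 31042 probe sets, 16 of 82 members (19.5%) were higher in aTX than in ctr at an adjusted p below 0.05, and 14 (17.1%) were lower. Over all probe sets, most of them weaker than the members, the shares were 20.2% higher and 22.2% lower. Among probe sets with an sTX mean of at least 100, a level that every member has, they were 31.4% and 42.6%. Members were called less often than probe sets of this level, but this cannot be read as a property of the genes. The thresholds keep aTX over ctr at or below 0.67 times sTX over ctr, which limits the calls of higher. The other 52 members (63.4%) passed the test in neither direction, which does not show that they equalled ctr. The median log2 difference of aTX minus ctr was -0.01 over the members (-1.53 to 1.93) and -0.07 over all probe sets. All aTX arrays lay above all ctr arrays in 7 members (16.4% of all probe sets did so) and below them in 5 (16.9%), while 70 overlapped.

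Without aTX 1, 14 members were higher and 16 lower, against 19.0% and 21.5% of all probe sets. Gucy1b1 and Nedd4 were no longer called higher, and C1qtnf5 and Selenom became called lower. The number of members with every remaining aTX array below every ctr array went from 5 to 14 (18.1% of all probe sets), and the number above stayed at 7. With the 3 acute arrays of the first wash run alone, which share their run with ctr, 12 members were higher and 18 lower, against 17.7% and 20.5% of all probe sets, and these included 12 of the 16 and all 14 of the calls above. Between the acute arrays of the second and of the first run, limma called 0 members and 0.0% of all probe sets. At an unadjusted p below 0.05, 24 members (29.3%) were higher and 2 (Ccl6 and Adamts5, 2.44%) lower in the second run, against 3.02% and 3.33% of all probe sets. When aTX 5 was left out, so that aTX 1 stood alone for the second run and was assumed to vary like the others, 5 members (C1qtnf5, Cdkn1c, Fbn1, Fstl1 and Serpine2) were called higher, against 0.351% of all probe sets called in either direction.

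**Figure D2:**
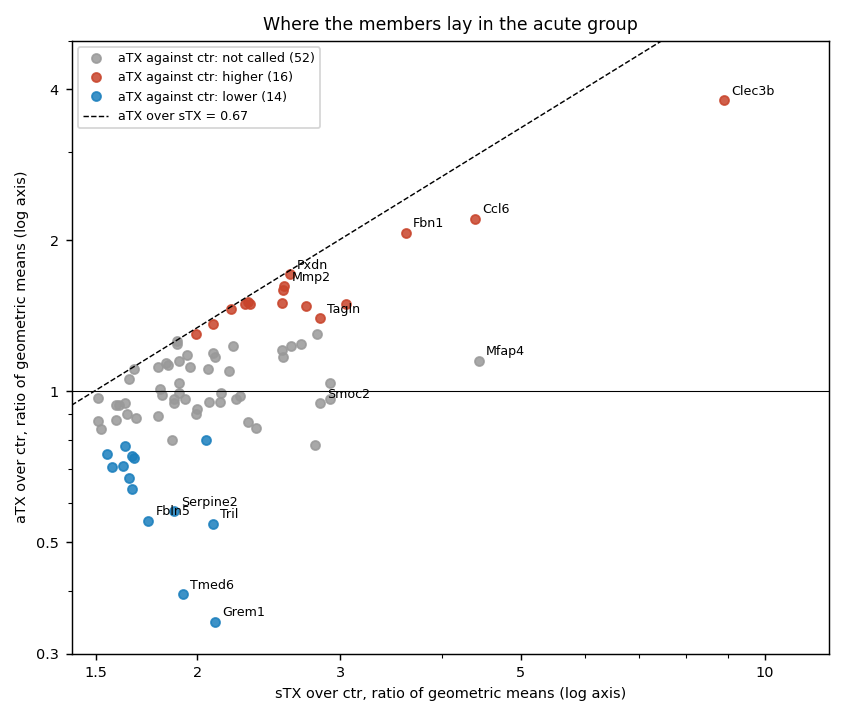
Ratio of geometric means of aTX over ctr (vertical, log axis) against sTX over ctr (horizontal, log axis) for the 82 member probe sets. The dashed line is the 0.67 threshold that all members lie under by choice, and colours give the limma call of aTX against ctr. The 16 members called higher lie between the line at 1 and the dashed line, with Clec3b the highest at 3.81, and the 14 called lower reach down to Grem1 at 0.347.

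The member genes were sorted into groups by what their products do, after the members were known. Counts of calls in a group are descriptions, beside 20.2% called higher and 22.2% called lower over all probe sets. In the values that follow, the 5 signals of a group are given in the order of replicates 1 to 5, and log2 differences and adjusted p-values are those of aTX minus ctr from limma with all 15 arrays. Levels of different probe sets are not compared with each other.

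**Figure D3:**
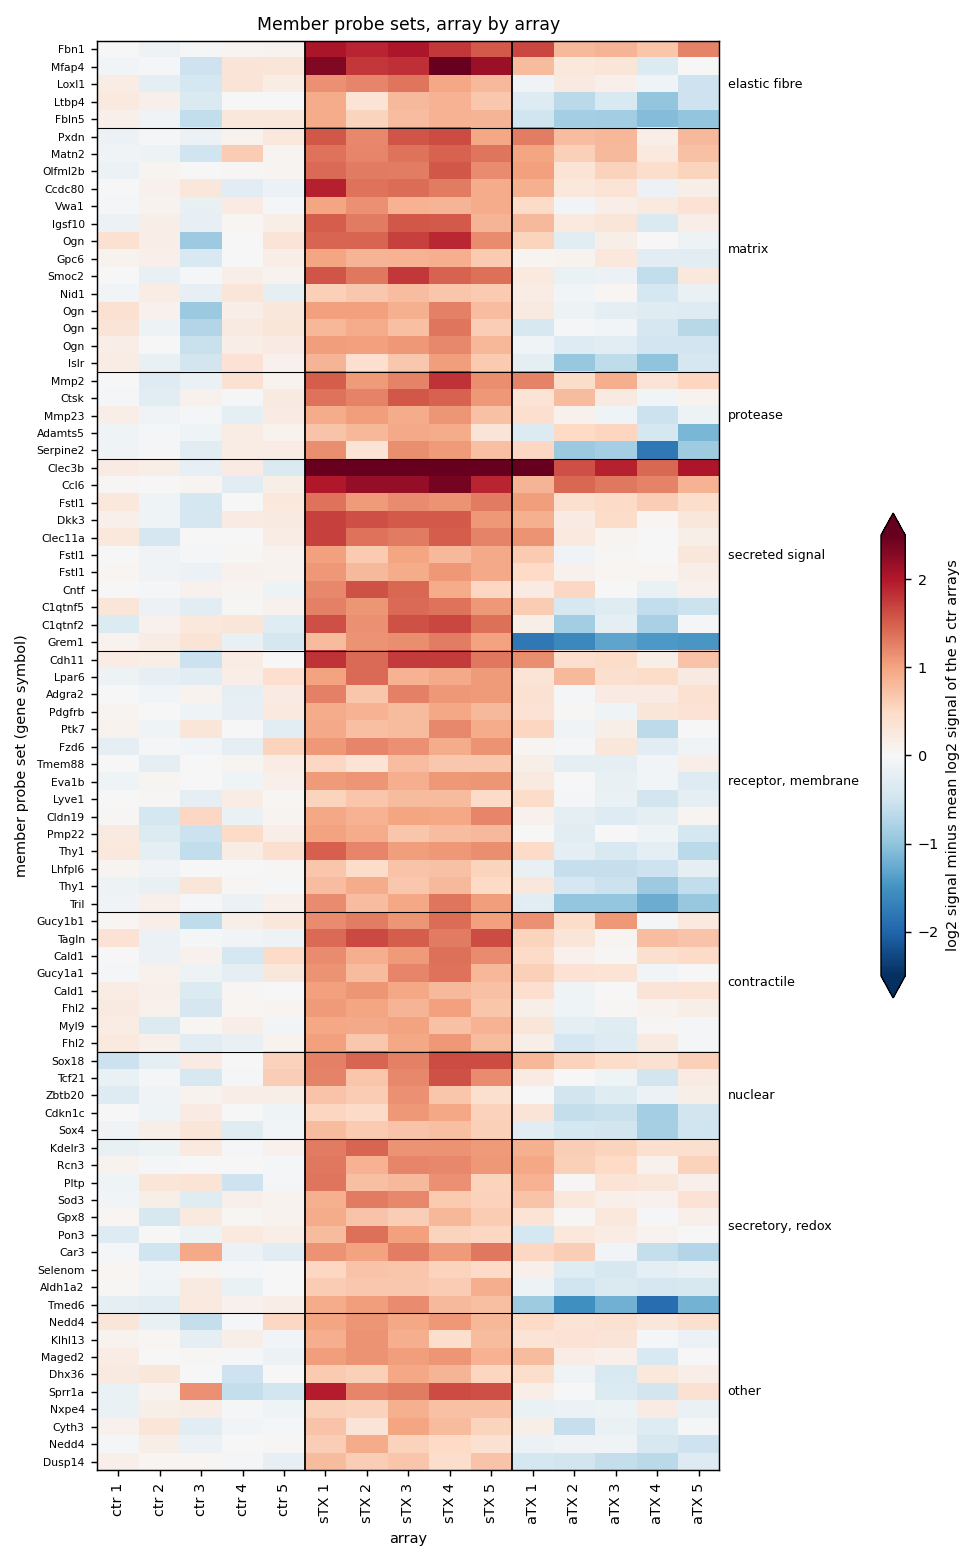
Log2 signal of each member probe set (rows, gene symbol) on each array (columns), relative to the mean of the 5 ctr arrays. Rows are grouped by role and ordered within a role by aTX over ctr. Every row lies above ctr in sTX, by choice of the members, while the aTX columns run from red (Clec3b, Fbn1) to blue (Grem1, Tmed6).

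The genes of elastic fibres were split in the acute group. Fbn1 encodes fibrillin-1, the backbone of microfibrils. Fbn1 signals were 83.3, 77.1, 82.8, 88.7 and 90.1 in ctr, 347.7, 314.6, 343.3, 285.8 and 244.3 in sTX and 267.6, 147.6, 151.3, 136.3 and 200.4 in aTX. Every sTX and every aTX array lay above every ctr array, with aTX 1 inside the sTX range. The ratios were 3.61 for sTX over ctr and 0.574 for aTX over sTX, and Fbn1 was higher in aTX than in ctr by 1.05 ± 0.14 log2 units (SE, adjusted p = 4.26e-06), and 0.90 (adjusted p = 2.34e-06) without aTX 1. Fbln5 encodes fibulin-5, which ties elastin to microfibrils and to cells. Fbln5 signals were 468.9, 408.7, 281.2, 527.4 and 528.4 in ctr, 820.7, 638.5, 738.6, 791.7 and 782.5 in sTX and 304.5, 238.3, 238, 204.5 and 218.4 in aTX. The acute arrays were the lowest of all but for aTX 1, which lay above ctr 3. Fbln5 was lower in aTX than in ctr, at -0.86 ± 0.14 log2 units (SE, adjusted p = 3.84e-05), and -0.94 (adjusted p = 1.42e-05) without aTX 1.

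Mfap4, a protein bound to microfibrils, lay between these. Mfap4 signals were 94.1, 96.9, 69.2, 124 and 122.1 in ctr, 489.7, 336.9, 352.6, 645 and 441.4 in sTX and 171.2, 118.8, 122.4, 78.7 and 99.1 in aTX. The syngeneic arrays were far above both other groups, which overlapped. The ratios were 4.44 for sTX over ctr and 0.259 for aTX over sTX, and the difference from ctr, which did not pass the test, was 0.20 ± 0.20 log2 units (SE, adjusted p = 0.458), and 0.06 (adjusted p = 0.848) without aTX 1. Ltbp4, a latent TGF-beta binding protein of elastic fibres, was lower in aTX than in ctr at 0.672-fold (adjusted p = 0.00116). Loxl1, an oxidase that crosslinks elastin, was at 0.95-fold (adjusted p = 0.738). Over the 5 genes aTX over ctr ran from 0.552 to 2.07, with 1 called higher and 2 lower.

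Other matrix components made up 14 probe sets of 11 genes, with sTX over ctr from 1.6 to 2.91. Smoc2 encodes a secreted calcium-binding relative of SPARC. Smoc2 signals were 195.9, 171.4, 189, 216.6 and 206.1 in ctr, 581.6, 484.6, 660.7, 540.2 and 509.1 in sTX and 232.6, 173.4, 177.3, 128 and 235 in aTX. The sTX arrays stood clear of both other groups, and the aTX arrays spread around the ctr range. The ratios were 2.83 for sTX over ctr and 0.335 for aTX over sTX. The difference from ctr was -0.08 ± 0.13 log2 units (SE, adjusted p = 0.684), and -0.16 (adjusted p = 0.365) without aTX 1, and it passed with the first wash run alone (-0.31, adjusted p = 0.0473). Nid1 encodes nidogen-1, which links laminin to collagen IV in basement membranes. Nid1 signals were 757.9, 899.9, 684.3, 979.1 and 682.3 in ctr, 1191, 1271.1, 1352.9, 1289.1 and 1252.5 in sTX and 900.4, 754.1, 815.6, 581.5 and 703 in aTX. Acute and control arrays overlapped, and aTX 4 was the lowest of all. The difference from ctr was -0.09 ± 0.11 log2 units (SE, adjusted p = 0.555), and -0.16 (adjusted p = 0.269) without aTX 1.

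Pxdn encodes peroxidasin, the enzyme that crosslinks collagen IV. Pxdn signals were 106.7, 114.4, 106.7, 126.7 and 141.8 in ctr, 348.3, 270.9, 351.4, 365.3 and 230.7 in sTX and 287.8, 202.2, 212.1, 133.3 and 208.4 in aTX. aTX 1 lay within the sTX range and aTX 4 within the ctr range. Pxdn was higher in aTX than in ctr by 0.77 ± 0.16 log2 units (SE, adjusted p = 0.000448), and 0.65 (adjusted p = 0.00143) without aTX 1. Ccdc80, a secreted matrix-binding protein, had its highest value on sTX 1. Ccdc80 signals were 324.4, 348.4, 393.2, 270.0 and 289.7 in ctr, 1245.6, 824.7, 844.9, 797.1 and 609 in sTX and 594.7, 385.8, 410.0, 290.3 and 356 in aTX. The difference from ctr was 0.30 ± 0.17 log2 units (SE, adjusted p = 0.186), and 0.15 (adjusted p = 0.498) without aTX 1, and aTX 1 was again the highest acute array.

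Osteoglycin (Ogn), a small leucine-rich proteoglycan, was read by 4 member probe sets, which are not independent. Their sTX over ctr ran from 1.86 to 2.91 and their aTX over sTX from 0.359 to 0.453. Of the 4, 1 was lower in aTX than in ctr (0.798-fold, adjusted p = 0.0358) and the others passed in neither direction. Matn2, a matrilin, was higher at 1.59-fold (adjusted p = 0.00189), and so was Olfml2b at 1.5-fold (adjusted p = 0.000194). Islr, a marker of mesenchymal stromal cells, was lower at 0.638-fold (adjusted p = 0.00186). Igsf10, Gpc6, a glypican, and Vwa1, a basement membrane protein, were between 0.981-fold and 1.18-fold of ctr and were not called. In all, 3 of the 14 probe sets were called higher and 2 lower.

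Proteases and a protease inhibitor formed a group of 5. Mmp2 encodes gelatinase A, which cleaves denatured collagens and collagen IV. Mmp2 signals were 99.1, 78.5, 87.7, 128.9 and 104.6 in ctr, 280.0, 206, 231.9, 343.8 and 219.8 in sTX and 232, 135.4, 185.5, 123.4 and 142.3 in aTX. All aTX arrays but aTX 4 were above all ctr arrays, and aTX 1 lay inside the sTX range. Mmp2 was higher in aTX than in ctr by 0.70 ± 0.17 log2 units (SE, adjusted p = 0.00203), and 0.56 (adjusted p = 0.00684) without aTX 1. Mmp23, a membrane-anchored metalloproteinase, did not pass. Mmp23 signals were 69.7, 58.1, 59.3, 52.8 and 70.8 in ctr, 118, 128, 116.9, 132.8 and 102.5 in sTX and 82.1, 66.6, 57.7, 42.3 and 56.5 in aTX. Its aTX and ctr arrays overlapped, at -0.05 ± 0.14 log2 units (SE, adjusted p = 0.819), and -0.17 (adjusted p = 0.358) without aTX 1.

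Serpine2 encodes protease nexin-1, an inhibitor of thrombin and plasminogen activators. Serpine2 signals were 116.4, 121.3, 102.9, 140.7 and 139.3 in ctr, 275.9, 156.7, 277.3, 259.5 and 208.9 in sTX and 175.6, 64.5, 68.5, 35.5 and 66.4 in aTX. The acute arrays disagreed, with aTX 1 above every ctr array and the other 4 below every one. Serpine2 was lower in aTX, at -0.79 ± 0.27 log2 units (SE, adjusted p = 0.0237), and -1.12 (adjusted p = 6.07e-05) without aTX 1. The test was no longer passed without aTX 4 (-0.54, adjusted p = 0.0795), ctr 4 (-0.74, adjusted p = 0.0529) or ctr 5 (-0.75, adjusted p = 0.0513). Adamts5 encodes an aggrecan-cleaving protease. Adamts5 signals were 55.6, 57.4, 55.2, 68.3 and 63.2 in ctr, 97.9, 105.8, 115.4, 113.4 and 74.4 in sTX and 47.3, 84.1, 86.9, 44.2 and 27 in aTX. aTX 2 and 3 lay above every ctr array, and aTX 1, 4 and 5 below every one. The difference from ctr was -0.18 ± 0.23 log2 units (SE, adjusted p = 0.6), and -0.14 (adjusted p = 0.725) without aTX 1. Ctsk, cathepsin K, was at 1.21-fold of ctr (adjusted p = 0.143).

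The secreted signals, their regulators and other secreted proteins held the largest and the smallest ratios. Clec3b encodes tetranectin, a plasminogen-binding lectin of plasma and matrix. Clec3b signals were 24.5, 23.5, 18.3, 24.5 and 16.6 in ctr, 223.3, 159.2, 214.4, 201.3 and 157.1 in sTX and 133, 65.1, 80.1, 57.6 and 86.4 in aTX. The 3 groups did not overlap, with aTX between ctr and sTX. The ratios were 8.91 for sTX over ctr and 0.428 for aTX over sTX, the largest rise of any member, and aTX exceeded ctr by 1.93 ± 0.19 log2 units (SE, adjusted p = 3.38e-08), and 1.75 (adjusted p = 2.54e-08) without aTX 1. Ccl6 encodes a CC chemokine of rodent myeloid cells. Ccl6 signals were 72.9, 72.2, 75.1, 59 and 79.1 in ctr, 284.7, 328.3, 326.5, 372.9 and 267.8 in sTX and 129.2, 191.6, 178.5, 167.8 and 130.9 in aTX. Again the groups did not overlap, and within aTX the arrays of the second run, aTX 1 and 5, were the lowest. Ccl6 was higher in aTX than in ctr by 1.14 ± 0.12 log2 units (SE, adjusted p = 9.37e-08), and 1.22 (adjusted p = 6.48e-08) without aTX 1.

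Grem1 encodes gremlin-1, a secreted antagonist of BMP2, BMP4 and BMP7. Grem1 signals were 204.1, 218.9, 242.1, 169.8 and 143.2 in ctr, 332.3, 417, 428.7, 466.4 and 387.7 in sTX and 55.6, 62.6, 76.8, 71.2 and 69.7 in aTX. All 5 acute arrays lay below all 5 ctr arrays and all ctr arrays below all sTX arrays, and aTX 1 was the lowest acute array, unlike in most members. The ratios were 2.1 for sTX over ctr and 0.165 for aTX over sTX, the lowest aTX over sTX of the members. Grem1 was lower in aTX than in ctr, at -1.53 ± 0.13 log2 units (SE, adjusted p = 4.2e-09), and -1.46 (adjusted p = 1.81e-08) without aTX 1.

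Dkk3, a Dickkopf family glycoprotein, and Fstl1, a follistatin-like glycoprotein, lay closer to ctr. Dkk3 signals were 42.6, 36, 29, 44.8 and 45.3 in ctr, 126.9, 118.4, 113.3, 112.3 and 83.1 in sTX and 72.3, 45.1, 53.5, 40.3 and 47.3 in aTX. sTX 5 was the low array of its group, and acute and control arrays overlapped. Dkk3 differed from ctr by 0.38 ± 0.16 log2 units (SE, adjusted p = 0.071), and 0.25 (adjusted p = 0.221) without aTX 1. It passed without aTX 4 (0.46, adjusted p = 0.0335). Fstl1 signals were 327.6, 300.9, 286.6, 344.5 and 338.5 in ctr, 676.4, 561.3, 605.2, 675.3 and 615.2 in sTX and 447.7, 344.6, 328.6, 327.9 and 356.3 in aTX. aTX 1 stood above the other acute arrays, which were within or just over the ctr range. For this probe set the difference was 0.17 ± 0.09 log2 units (SE, adjusted p = 0.127), and 0.09 (adjusted p = 0.383) without aTX 1, while another member probe set of Fstl1 was called higher at 1.51-fold (adjusted p = 0.000845) and the last was not called at 1.13-fold (adjusted p = 0.2).

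C1qtnf2, a C1q and TNF related secreted protein, was among the members with the lowest aTX over sTX. C1qtnf2 signals were 31.4, 43.1, 47.8, 49.1 and 32.3 in ctr, 122.6, 88.4, 121.2, 127 and 103.9 in sTX and 44.5, 22, 34.2, 22.8 and 39.1 in aTX. The sTX arrays stood clear of both other groups. Its difference from ctr was -0.36 ± 0.19 log2 units (SE, adjusted p = 0.159), and -0.48 (adjusted p = 0.0504) without aTX 1, and with the first wash run alone it passed at -0.63 (adjusted p = 0.0136). C1qtnf5, Clec11a, a growth factor of bone marrow stroma, and Cntf, ciliary neurotrophic factor, had aTX over ctr of 0.846, 1.24 and 1.1 and were not called. Of the 11 probe sets in the group 3 were called higher and 1 lower.

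Receptors, adhesion molecules and other membrane proteins gave 15 probe sets of 14 genes. Cdh11 encodes cadherin-11, an adhesion molecule of mesenchymal cells. Cdh11 signals were 174.6, 168.9, 105.5, 174 and 153.6 in ctr, 531.9, 410.1, 514.4, 512 and 383 in sTX and 340.3, 204.4, 209.1, 168 and 250.7 in aTX. ctr 3 was low within its group, and only aTX 4 fell inside the ctr range. Cdh11 was higher in aTX than in ctr by 0.58 ± 0.16 log2 units (SE, adjusted p = 0.00686), and 0.43 (adjusted p = 0.0223) without aTX 1. Fitted with the run as a block, it was 0.34 (adjusted p = 0.105). Pdgfrb encodes the PDGF receptor beta of pericytes and fibroblasts. Pdgfrb signals were 77.8, 75.2, 68.7, 64.3 and 88.8 in ctr, 141, 135.8, 128.9, 146.2 and 130.9 in sTX and 95.5, 76.4, 69, 91.8 and 96 in aTX. The sTX arrays were within a narrow range above all others, and aTX overlapped ctr. Against ctr the difference was 0.19 ± 0.11 log2 units (SE, adjusted p = 0.171), and 0.15 (adjusted p = 0.333) without aTX 1, and it passed without aTX 3 (0.27, adjusted p = 0.0479).

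Tril encodes a partner of Toll-like receptor 4. Tril signals were 115, 134.4, 120.3, 110.0 and 133.5 in ctr, 278, 210.0, 238.9, 307.7 and 253.1 in sTX and 101, 62.7, 62.6, 51.4 and 63.7 in aTX. All acute arrays were below all ctr arrays, aTX 1 being closest to them. Tril was lower in aTX than in ctr, at -0.88 ± 0.14 log2 units (SE, adjusted p = 2.52e-05), and -1.03 (adjusted p = 1.82e-07) without aTX 1. Cldn19 encodes claudin-19, a tight junction protein of the thick ascending limb and so an epithelial rather than a stromal gene. Cldn19 signals were 133.7, 96.5, 187.3, 116.6 and 136.6 in ctr, 256, 239, 259.8, 255.4 and 305.9 in sTX and 140.3, 111.7, 105, 112.2 and 137.5 in aTX. ctr 3 was the highest control array, and aTX overlapped ctr. The difference from ctr was -0.12 ± 0.13 log2 units (SE, adjusted p = 0.525), and -0.18 (adjusted p = 0.363) without aTX 1.

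Thy1, the CD90 antigen found on fibroblasts, had a pair of member probe sets, at 0.736-fold of ctr (adjusted p = 0.0345, lower) and 0.869-fold (adjusted p = 0.451). Lhfpl6 was lower at 0.751-fold (adjusted p = 0.000557), and Lpar6, a receptor for lysophosphatidic acid, was higher at 1.36-fold (adjusted p = 0.0145). The Wnt-linked receptors Fzd6, Ptk7 and Adgra2 were at 0.99, 0.992 and 1.17 of ctr and were not called. Neither were Lyve1, a hyaluronan receptor of lymphatic endothelium, Pmp22, Eva1b and Tmem88, which ran from 0.891 to 0.968. In the group 2 probe sets were called higher and 3 lower.

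In the contractile group of 8 probe sets 0 were called lower (22.2% of all probe sets were), too few probe sets to set the group apart. Tagln encodes transgelin, an actin-binding protein of smooth muscle and myofibroblasts. Tagln signals were 318.2, 223.5, 239.1, 235.9 and 227 in ctr, 655.1, 769.8, 703.8, 606.6 and 764.4 in sTX and 361.7, 304.7, 259, 420.3 and 406 in aTX. ctr 1 was high within its group, the sTX arrays were above all others, and 3 of the 5 acute arrays exceeded ctr 1. Tagln was higher in aTX than in ctr by 0.48 ± 0.12 log2 units (SE, adjusted p = 0.00283), and 0.47 (adjusted p = 0.00739) without aTX 1. Cald1 encodes caldesmon, which regulates actin and myosin. Cald1 signals were 442.8, 428.2, 309, 401.3 and 389.2 in ctr, 797.6, 839, 762.5, 689.4 and 647.1 in sTX and 521.9, 369.2, 394.8, 490.6 and 492.7 in aTX. Acute arrays overlapped control arrays, with 0.20 ± 0.11 log2 units (SE, adjusted p = 0.153), and 0.15 (adjusted p = 0.332) without aTX 1. Myl9 encodes a regulatory myosin light chain. Myl9 signals were 278, 191.9, 250.2, 274 and 232.7 in ctr, 475.2, 467.5, 490.2, 404.2 and 442.6 in sTX and 299, 207.2, 197.9, 246.6 and 238 in aTX. Its aTX and ctr ranges overlapped, at -0.05 ± 0.11 log2 units (SE, adjusted p = 0.772), and -0.14 (adjusted p = 0.333) without aTX 1.

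Both subunits of soluble guanylate cyclase, the receptor for nitric oxide, were members. Gucy1b1 was at 1.49-fold of ctr (adjusted p = 0.0257, higher) and Gucy1a1 at 1.19-fold (adjusted p = 0.137). Fhl2, a LIM protein that binds nuclear and cytoskeletal partners, was at 1.04-fold and 0.946-fold on its probe sets and was not called. The other Cald1 probe set was at 1.23-fold (adjusted p = 0.0833). Over the group aTX over ctr ran from 0.946 to 1.49, with 2 called higher.

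Transcription factors and a cell cycle inhibitor were few. Sox4 encodes a SOX factor of progenitors and of injured epithelium. Sox4 signals were 254.9, 298.2, 330.4, 218.7 and 258.5 in ctr, 463.1, 423.8, 443.6, 451.7 and 404.8 in sTX and 225.7, 198.1, 196.6, 151.6 and 192 in aTX. Only aTX 1 reached the ctr range, passing ctr 4 alone. Sox4 was lower in aTX than in ctr, at -0.49 ± 0.10 log2 units (SE, adjusted p = 0.000568), and -0.55 (adjusted p = 0.000231) without aTX 1. Cdkn1c encodes p57, an inhibitor of cyclin-dependent kinases found in podocytes. Cdkn1c signals were 303.7, 281.4, 348.3, 308.2 and 283.4 in ctr, 442.1, 425.1, 644.6, 596.8 and 450.5 in sTX and 382.7, 200.4, 206.9, 168.1 and 221.4 in aTX. aTX 1 lay above every ctr array and the other 4 below every one. The difference was -0.43 ± 0.16 log2 units (SE, adjusted p = 0.0421), and -0.62 (adjusted p = 0.000249) without aTX 1. The test was not passed without aTX 2, 3, 4 or 5 in turn, at -0.42 to -0.32 (adjusted p = 0.071 to 0.131), nor without ctr 1, 3, 4 or 5 in turn (adjusted p = 0.0501 to 0.0935). The difference was -0.67 (adjusted p = 0.000326) with the first wash run alone. Sox18, a factor of endothelium, was higher at 1.48-fold (adjusted p = 0.00623). Tcf21, a factor of podocytes and stromal cells, was at 0.978-fold and Zbtb20 at 0.901-fold, and neither was called.

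The genes of the secretory pathway, redox enzymes and metabolism ran from 0.394 to 1.49 in aTX over ctr. Tmed6 encodes a cargo protein of the early secretory pathway. Tmed6 signals were 161.1, 154, 220.9, 202.6 and 210.0 in ctr, 356.3, 386.9, 423.1, 329.9 and 315.9 in sTX and 100.9, 65.2, 81.2, 50.3 and 82.8 in aTX. All acute arrays were below all ctr arrays, with aTX 1 the highest of them. Tmed6 was lower in aTX than in ctr, at -1.34 ± 0.15 log2 units (SE, adjusted p = 2.63e-07), and -1.45 (adjusted p = 6.81e-08) without aTX 1. Sod3 encodes extracellular superoxide dismutase. Sod3 signals were 633.7, 729.3, 540.6, 721.8 and 708.5 in ctr, 1227.3, 1629.9, 1519, 1040.2 and 982.6 in sTX and 1080.0, 800.6, 721, 718.7 and 850.0 in aTX. aTX 1 lay inside the sTX range and the other 4 from within to just over the ctr range. The difference was 0.32 ± 0.14 log2 units (SE, adjusted p = 0.0725), and 0.22 (adjusted p = 0.212) without aTX 1, and it passed with quantile normalisation (0.38, adjusted p = 0.0408). Pltp encodes phospholipid transfer protein. Pltp signals were 115.9, 153, 157.7, 86.8 and 121.3 in ctr, 314.4, 207.7, 216.5, 274.4 and 183.1 in sTX and 226.6, 126.1, 157, 151.5 and 135.6 in aTX. aTX 1 was above sTX 2, 3 and 5, and the other acute arrays lay within the ctr range. Pltp differed from ctr by 0.33 ± 0.17 log2 units (SE, adjusted p = 0.147), and 0.19 (adjusted p = 0.394) without aTX 1.

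Kdelr3, a receptor that returns proteins to the endoplasmic reticulum, and Rcn3, a calcium-binding protein of the same compartment, were higher in aTX at 1.49-fold (adjusted p = 0.000293) and 1.46-fold (adjusted p = 0.000748). Aldh1a2, which makes retinoic acid, was lower at 0.777-fold (adjusted p = 0.0055). Gpx8, Selenom, Car3, a carbonic anhydrase, and Pon3, a lactonase, ran from 0.874-fold to 1.11-fold and were not called. The group had 2 called higher and 2 lower.

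The remaining 8 genes share no role. Nedd4 encodes a ubiquitin ligase. Nedd4 signals were 875.2, 990.6, 800.0, 893.9 and 907.7 in ctr, 1364.7, 1703, 1320.9, 1266.3 and 1158.7 in sTX and 801.1, 844.2, 833.1, 678 and 619.8 in aTX. The sTX arrays were above all others, and aTX ran from below to within the ctr range. The difference was -0.25 ± 0.10 log2 units (SE, adjusted p = 0.0538), and -0.27 (adjusted p = 0.0508) without aTX 1. It was called lower when aTX 2, aTX 3, ctr 3, sTX 2 or sTX 5 was left out (-0.29 to -0.25, adjusted p = 0.027 to 0.0453) and with median centring (-0.32, adjusted p = 0.0207). The other Nedd4 member probe set was called higher at 1.3-fold (adjusted p = 0.0374), so the probe sets of this gene disagreed in sign. Sprr1a encodes a cornified envelope precursor that is induced by stress in several tissues. Sprr1a signals were 32.6, 39, 80.3, 24.2 and 26.5 in ctr, 141.8, 85.5, 90.6, 112.6 and 111.3 in sTX and 41.3, 36.7, 28.7, 26.5 and 47.5 in aTX. ctr 3 lay well above the other control arrays and close to the lowest sTX array, and aTX overlapped ctr. The difference was -0.05 ± 0.26 log2 units (SE, adjusted p = 0.901), and -0.11 (adjusted p = 0.804) without aTX 1. Dusp14, a phosphatase, was lower at 0.707-fold (adjusted p = 0.000384). Maged2, Klhl13, Cyth3, Nxpe4 and Dhx36 ran from 0.875-fold to 1.12-fold and were not called.

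**Figure D4:**
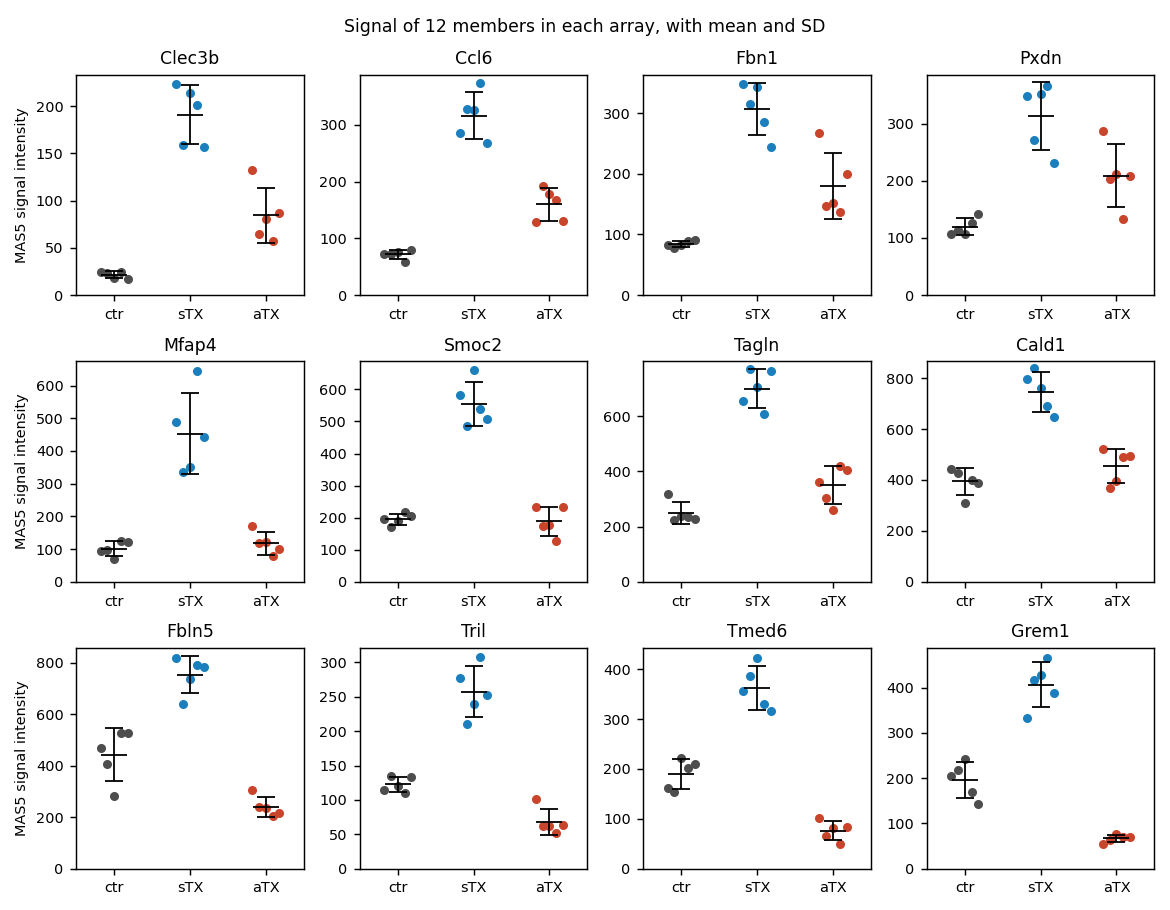
MAS5 signal intensity of 12 members on each of the 5 arrays per group (points, in the order of replicates 1 to 5), with the mean and SD of the group. Clec3b, Ccl6 and Fbn1 remained above ctr on every aTX array, Mfap4, Smoc2 and Cald1 overlapped ctr, and Tril, Tmed6 and Grem1 lay below every ctr array.

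Other probe sets of the member genes were not used by the thresholds, although they read the same kidneys. There were 49 of them for 26 genes, and sTX was the highest group in 39 (79.6%), against 35.1% of all probe sets tested. In 17 both ratios were met. Of the 12 with an sTX mean of at least 100, sTX was the highest in 10, and Car3 and Sox4 met both ratios (1.94 and 0.391, 1.93 and 0.484). This Sox4 probe set was at 0.934 in aTX over ctr, against 0.71 for the member. For Zbtb20 a probe set at 475 in ctr, 471 in sTX and 266 in aTX showed no rise. For Dhx36 one at 98.3, 108 and 118 was highest in aTX. Other probe sets at this level missed the fall in aTX over sTX, at 0.716 for Fbn1, 0.774 for Nid1, 0.679 for Pmp22 and 0.688 to 0.708 for Nedd4. The membership of these genes therefore rests on only some of their readings.

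The matrix genes beside the members had several shapes. In a list of 44 measured matrix glycoproteins and proteoglycans, 7 genes were those of members. Of the other 37, limma called 19 higher and 1 lower in sTX against ctr (11.4% and 6.32% of all probe sets). In aTX against sTX 3 were higher and 21 lower (13.9% and 22.1%), and in aTX against ctr 16 higher and 12 lower (20.2% and 22.2%). Eln, elastin itself, had geometric means of 34.5 in ctr, 77.2 in sTX and 20.9 in aTX, and Mfap5 of 11.4, 38.4 and 8.52. Both have the members' shape at an sTX level under 100, as do Mfap2 and Srpx2. Fn1, fibronectin, was at 410, 1135.5 and 983, and Dcn, decorin, at 884, 1819.1 and 1574.1, and neither passed the test in aTX against sTX (adjusted p = 0.122 and 0.287). Tnc, tenascin-C, was higher again in aTX than in sTX at 31.2, 115 and 219 (adjusted p = 1.11e-05), and Tgfbi, a TGF-beta induced adhesion protein, stood at 416, 358 and 1478.7.

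**Figure D5:**
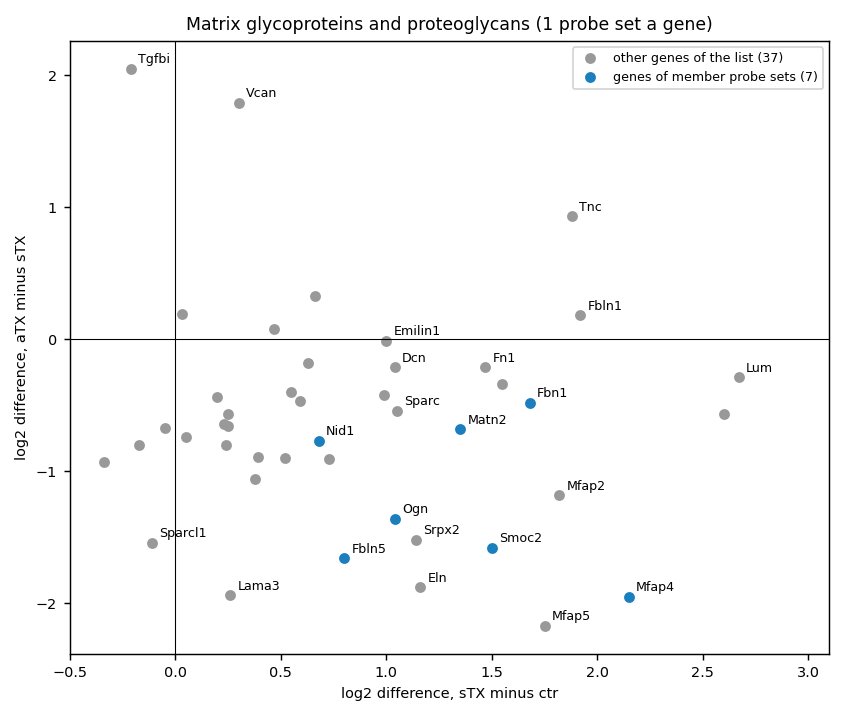
Log2 difference of aTX minus sTX (vertical) against sTX minus ctr (horizontal) for 44 matrix genes, 1 probe set a gene. Blue points are genes of members, chosen for the lower right, and grey points the other 37. For Fbn1 the list uses another probe set than the member. Eln, Mfap2, Mfap5 and Srpx2 lie among the members, Fn1, Dcn, Lum and Emilin1 near the horizontal line, and Tnc, Vcan and Tgfbi above it.

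The collagens that the choice by symbol set aside were mostly above ctr in aTX. Of the 16 probe sets, Col1a1, Col1a2 and Col3a1, the fibrillar collagens of scars, had aTX over ctr of 2.67 to 3.95 with aTX over sTX of 0.545 to 0.658. Col8a2, Col11a1 and Col12a1 were at 0.552, 0.632 and 0.885 of ctr. Fibroblast and smooth muscle markers were summed to 1945.5 to 2345.5 in ctr, 5654.0 to 6887.6 in sTX and 3953.4 to 5672.1 in aTX. Of the 8 genes in that list, Tagln and Pdgfrb are members. Col1a1 and Col3a1 in the list met every threshold on the same probe sets and were left out by symbol. Their rise in sTX and lower signal in aTX than in sTX therefore follow from the rule. Of the 6 non-members, these included, 5 were called higher and 0 lower in sTX against ctr (11.4% and 6.32% of all probe sets). In aTX against sTX 0 were higher and 4 lower (13.9% and 22.1%). In aTX against ctr 5 were higher and 1 lower (20.2% and 22.2%). The exception was Myh11, the smooth muscle myosin, at 114 in ctr, 82.2 in sTX and 41.2 in aTX.

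The TGF-beta and BMP list held 35 measured genes, of which Grem1 and Fstl1 are members. Of the other 33, 9 were called higher and 5 lower in sTX against ctr (11.4% and 6.32% of all probe sets). In aTX against sTX 3 were higher and 18 lower (13.9% and 22.1%). In aTX against ctr 7 were higher and 15 lower (20.2% and 22.2%). The lists take the probe set of a gene with the highest mean signal. Among probe sets with an sTX mean of at least 100 the last shares were 31.4% and 42.6%. Among the ligands that gremlin-1 binds, Bmp4 had geometric means of 318 in ctr, 203 in sTX and 75.3 in aTX, and Bmp7 of 454, 428 and 214, so both were lowest in aTX along with Grem1. Bmp2 went the other way at 19.2, 26.2 and 36.0, and was higher in aTX than in ctr (adjusted p = 0.000263). Tgfb1, the main fibrogenic ligand, was at 70.3, 108 and 241, and Tgfb3 at 26.5, 44.3 and 24.6.

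Among other genes of the protease list, 36 beside the 4 members, 13 were called higher and 2 lower in sTX against ctr, 10 higher and 13 lower in aTX against sTX, and 17 higher and 11 lower in aTX against ctr. Among the 35 other genes of the cytoskeleton list, 21 were higher and 0 lower in sTX against ctr, 15 higher and 11 lower in aTX against sTX, and 21 higher and 6 lower in aTX against ctr.

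The sequence before the start site of the member genes was searched for the letters of known motifs. Of the 73 genes 48 had a promoter in RefSeq's table (build GRCr8), and the 250 bases before each start were read on both strands. TGANTCA, the AP-1 site, was present in 6 of 48 genes (12.5%), against 4.59% of 5121 genes with an sTX mean of at least 100 and 6.99% of all 27457 genes. TATAAA was in 8 (16.7%), against 6.99% and 14.1%. GGGCGG, the GC box, was in 29 (60.4%), against 62.8% and 33.5%, and CCAAT in 16 (33.3%), against 38.0% and 36.1%. TGACNNNGC, the core of the antioxidant response element, was in 11 (22.9%), against 14.1% and 11%. TGACGTCA was in 1 gene (2.08%, against 2.75% and 1.78%), CACGTG in 2 (4.17%, against 9.1% and 6.18%) and the HNF1 site in 0 (0.0% of the 5121). The CArG box, bound by serum response factor at contractile genes and added to the search after the members were known, was in 1 (2.08%, against 1.46% and 1.62%), and that gene was Fhl2. The same base could count toward more than 1 motif. A motif match is a description of letters, and GC-rich or AT-rich sequence alone changes these shares (median GC content 56.8% in members and 60.4% in the 5121 genes).

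Stretches of 100 bases before the start are shown for Fhl2, whose separate promoters each carry a CArG box, for Sprr1a, a member with AP-1 letters, and for Ccl6, a member with a TATA box close to its start. Capitals mark the matched letters, and the coordinates are those of GRCr8.
Fhl2 (chr9:52954581-52954680, minus strand): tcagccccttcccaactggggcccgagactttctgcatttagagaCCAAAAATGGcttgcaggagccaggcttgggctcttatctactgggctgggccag
Fhl2 (chr9:52923330-52923429, minus strand): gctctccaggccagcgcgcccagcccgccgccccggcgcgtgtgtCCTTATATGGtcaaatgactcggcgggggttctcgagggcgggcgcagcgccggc
Sprr1a (chr2:180752720-180752819, minus strand): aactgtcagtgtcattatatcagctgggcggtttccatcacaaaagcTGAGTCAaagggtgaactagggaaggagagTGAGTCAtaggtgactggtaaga
Ccl6 (chr10:68883367-68883466, minus strand): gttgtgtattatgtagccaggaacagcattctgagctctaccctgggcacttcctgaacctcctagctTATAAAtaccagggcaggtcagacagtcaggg
The CArG letters lie 95 and 58 bases before the Fhl2 starts, counted from the first letter of the match. In Sprr1a the first AP-1 match begins 147 bases before the start, and in Ccl6 the TATA box begins 32 bases before it.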

How the data were processed

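RNA of 15 kidneys, 5 per group, was hybridized to 1 array each. The authors deposited MAS5 signal intensities per probe set, on a linear scale, and each array has a mean of 100 once 2% of its probe sets are trimmed at either end. Detection calls were not used. Of 31099 probe sets 57 are Affymetrix controls, and 31042 were tested. A table of the array's genes gives 1 symbol to 20826, several to 436 and none here to 9780. 54 signals of 0 were set to 0.05 before log2.

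Groups came from titles and source names. They were compared with limma 3.58.1 in R 4.3.3 (lmFit, eBayes with trend) in a single fit of the 15 arrays, with Benjamini-Hochberg adjustment over 31042 probe sets, and the fit was tested on simulated data. A call is an adjusted p below 0.05. The tests set each group difference against the spread between kidneys of the same group, and 5 arrays per group limit the precision. In sTX against ctr the difference also holds any difference between the runs. Ratios are of geometric means. Marker sums and lists use 1 probe set a gene. The wash runs were inferred from the hybridization date and time in each array's instrument record, with arrays close in time taken as 1 run. Tables were made with pandas 2.3.3 and numpy 2.4.6 in Python 3.11.15, and plots with matplotlib 3.10.9.

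The members, gene lists and tests were chosen with earlier results of these data known. Members given with every array are the 8 with the largest sTX over ctr, the 8 with the lowest aTX over sTX, the 6 with the highest sTX mean, the 5 lowest and 5 highest in aTX over ctr, and up to 3 of each list with the lowest aTX over sTX, with 1 probe set a gene. Other scalings, floors, filters, tests, the wash run and replicate number as blocks, and leaving out single arrays were tried.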

Additional observations from a re-analysis of the deposited data

Results flagged for a closer look

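In 4 of 93 groups of 5 arrays of the 31 members given array by array, 1 array lay far from the others. On log2 signals, its gap to the nearest over the range of the group was above 0.71. The values below are linear signals, on which the gaps differ. Chance flags about 1 in 20 groups. Cdh11 was 105.5 on ctr 3, against 153.6 to 174.6 on the other control arrays. Dkk3 was 83.1 on sTX 5, against 112.3 to 126.9. Fstl1 was 447.7 on aTX 1, against 327.9 to 356.3. Tagln was 318.2 on ctr 1, against 223.5 to 239.1.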

How the results depend on the processing

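The rule gave 82 member probe sets. It gave 45 with each array centred on its median, 43 with an sTX mean of at least 200 and 25 with ratios of at least 2 and at most 0.5. It gave 62 to 108 under the other alternatives, and 75 to 101 when 1 array was left out. With 108 members, the count without sTX 4 and sTX 5 was the highest, and 80 of these were among the 82. Median centring takes off the median of each array. The amount removed between groups need not equal the median difference of all probe sets (0.09 for sTX minus ctr and -0.18 for aTX minus sTX on the log2 scale).

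The median log2 ratio of sTX to ctr over the members was 1.0. It was 0.80 with median centring, 0.90 with an offset of 16 and 0.83 once the run was a block. The medians of aTX over ctr and of aTX over sTX moved by less than the spread between arrays under every alternative run, from -0.09 to 0.16 and from -1.04 to -0.84.

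Members called higher in aTX than in ctr numbered 16, and lower 14. The methods' t-test gave 3 and 4 at their unadjusted threshold of 0.001, and 11 and 10 after Benjamini-Hochberg. The other alternatives gave 12 to 18 higher and 10 to 18 lower, and no array left out took either count beyond 10 to 17. Calls between the acute arrays of the second and first wash run went from 0 to 5 without aTX replicate 5. The other alternatives run for this comparison gave 0.

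Arrays that carry the same number showed little common deviation from their group means. Of 15 pairs, 2 correlated above 0.1 (-0.079 to 0.18). Arrays of different numbers were not compared, so a pairing of the samples by number was neither shown nor excluded. With the replicate number as a block 16 members were higher and 15 lower.

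Of 837 recomputed values of the 31 members given array by array, 790 kept their side of the threshold, 28 lost their call, 19 gained one, and 0 called values changed sign. Cdkn1c lost its call most often, also with an offset of 16 (adjusted p = 0.0501). Detection calls were not used, so how far weak signals, such as those of Clec3b in ctr, lay above background is not given here.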
